A study of Schizosaccharomyces pombe with 4 samples.

Results

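Small nucleolar RNA (snoRNA) genes of the fission yeast *S. pombe* were examined gene by gene in total and polyadenylated RNA. They are the 53 features, of 12684 in all, whose identifiers begin with SPSNORNA. By their coordinates, 25 lay wholly inside another feature on the same strand, 13 overlapped a feature on the opposite strand only, and 14 overlapped nothing. The last, snR91, shared 136 of its 144 nucleotides (nt) with the same-strand non-coding RNA SPNCRNA.901 and was kept apart. All 53 starts and ends equal those of the RefSeq annotation of assembly ASM294v3. Gene counts came from 2 libraries of total, ribo-depleted RNA and 2 of oligo(dT)-enriched poly(A)+ RNA. All 4 were made from vegetative haploid *h-* cells that are called wild type but carry *leu1-32* and the kinase allele *pat1-L95G* marked with kanR, grown in minimal medium at 30 °C for 2 days. Replicates were independent yeast cultures. The library kit, the read length, the sequencer and the adapter trimming changed together with the fraction, so that their effects and that of the RNA fraction cannot be told apart.

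The libraries held 25530272 to 30650533 counts. The M-factor genes *mfm1*, *mfm2* and *mfm3* and the receptor gene *mam2*, all markers of *h-* cells, stood between 146 and 1345 CPM (counts scaled to a common library total) in total RNA. The *h+* markers *map2* and *map3* had 0.384 and 8.60 CPM, and the meiotic genes *mei4*, *rec8* and *spo5* 1.54 to 3.30. Strands were told apart in total RNA but, in the median over antisense features, not in poly(A)+ RNA. Over 2918 long non-coding RNAs that lie antisense within a protein-coding gene, counts per nucleotide relative to that gene had a median of 0.0110 and 0.0109 in the total RNA libraries, against 1.31 and 1.28 in the poly(A)+ libraries. Poly(A)+ counts of a snoRNA gene may therefore hold reads of whatever lies across from it. This need not hold for each gene. snR10 had 4 and 19 poly(A)+ counts, while SPNCRNA.7137, which covers all of it on the other strand, had 2 and 0.

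snoRNAs guide the chemical modification of ribosomal and other RNAs in the nucleolus. Box C/D snoRNAs pair with the target and direct its 2'-O-methylation by the fibrillarin complex, named after their C (UGAUGA) and D (CUGA) boxes. Box H/ACA snoRNAs are folded into hairpins, end a few nucleotides after the triplet ACA, and direct the conversion of uridine to pseudouridine by the dyskerin complex. A few, such as U14 and snR30, are needed to cut the precursor of ribosomal RNA. snoRNAs are made from genes of their own, from precursors that hold several of them, or from introns of other genes, and are trimmed at their ends by exonucleases. Mature snoRNAs lack a poly(A) tail.

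The sequences of all 53 genes were read from the RefSeq genome, assembly ASM294v3, and are printed 5′ to 3′. When the box C/D pattern was defined as TGATGA followed by CTGA in the last 40 nt, it was found in 18 of them (33.96%) and in 1.10% of 1642 other features of 60 to 300 nt. Among the rest, an ACA within the last 10 nt was found in 19 (35.8%), against 11.8% of the other features. Only the annotated strand was searched for these shares. A looser pattern, chosen after the sequences had been seen, asks for GATG starting in the first 20 nt and CTGA in the last 15, and places 28 genes in box C/D, 17 in H/ACA and 8 in neither. These classes are used below as descriptions of sequence. The following 3 genes are shown, with the first TGATGA and the last CTGA in capitals, because they represent box C/D genes from each setting discussed below: snoU14 (chrII:1308634-1308745, + strand) inside *mamRNA*, snR41 (chrI:1200168-1200253, + strand) inside a precursor of 3 snoRNA genes, and sno52 (chrI:339548-339642, - strand) opposite *taf9*. A CTGA had to start after the first TGATGA.
snoU14: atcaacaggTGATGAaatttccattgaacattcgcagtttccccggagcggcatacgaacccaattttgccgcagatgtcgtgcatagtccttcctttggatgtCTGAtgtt
snR41: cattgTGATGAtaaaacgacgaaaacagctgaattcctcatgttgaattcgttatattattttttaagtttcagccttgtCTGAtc
sno52: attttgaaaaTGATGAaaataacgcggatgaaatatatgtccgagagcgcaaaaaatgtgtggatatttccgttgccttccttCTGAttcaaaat

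Genes with ACA near the end are represented by sno12 (chrIII:583416-583605, + strand), which kept the least signal in poly(A)+ RNA, by snR95 (chrII:1468185-1468406, - strand), the second highest by level, and by snR46 (chrIII:1717920-1718087, - strand), which takes nearly all counts of the feature around it. The last ACA is in capitals. In 10 of the 53 genes it stood exactly 3 nt before the annotated end, as it did in 1.46% of the other features.
sno12: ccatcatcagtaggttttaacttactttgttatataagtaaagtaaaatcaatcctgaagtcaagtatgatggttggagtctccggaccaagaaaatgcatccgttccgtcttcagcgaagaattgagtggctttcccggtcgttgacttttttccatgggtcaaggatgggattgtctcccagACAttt
snR95: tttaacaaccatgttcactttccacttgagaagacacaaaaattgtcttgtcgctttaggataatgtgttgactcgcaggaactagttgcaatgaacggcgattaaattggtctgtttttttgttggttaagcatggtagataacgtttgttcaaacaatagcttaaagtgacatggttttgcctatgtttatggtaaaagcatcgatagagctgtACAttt
snR46: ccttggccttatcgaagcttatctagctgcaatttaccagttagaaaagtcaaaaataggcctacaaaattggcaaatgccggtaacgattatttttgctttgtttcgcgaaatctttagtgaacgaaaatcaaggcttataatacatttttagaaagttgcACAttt

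In 3 further genes longer than 140 nt, snR10 (chrIII:992436-992602), snR5 (chrII:2266028-2266169) and snR96 (chrI:1451227-1451437), the annotated + strand held neither pattern. They are shown on the opposite, - strand, where the last ACA, in capitals, stood 3, 2 and 3 nt before the end, because these same genes had the lowest levels of all long snoRNA genes. The annotated strand of sno16 and sno20, also longer than 140 nt, held neither pattern as well. These 2 genes had no ACA in the last 10 nt of the opposite strand. Their levels in total RNA were 2400 and 287.4 CPM per kb. On the opposite strand, ACA stood exactly 3 nt before the end in 4 of the 53 genes. Among these were snR41 and snoR56, which are box C/D-like on the annotated strand. It also stood within the last 10 nt of that strand in snoR38, snoR54b and snR36. A match of 3 letters is a description and names neither the strand nor the class of the RNA.
snR10: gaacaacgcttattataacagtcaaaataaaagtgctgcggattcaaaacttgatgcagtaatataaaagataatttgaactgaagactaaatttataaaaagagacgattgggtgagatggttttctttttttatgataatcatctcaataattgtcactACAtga
snR5: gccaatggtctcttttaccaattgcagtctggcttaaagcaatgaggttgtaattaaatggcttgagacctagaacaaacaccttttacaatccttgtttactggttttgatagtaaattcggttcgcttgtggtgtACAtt
snR96: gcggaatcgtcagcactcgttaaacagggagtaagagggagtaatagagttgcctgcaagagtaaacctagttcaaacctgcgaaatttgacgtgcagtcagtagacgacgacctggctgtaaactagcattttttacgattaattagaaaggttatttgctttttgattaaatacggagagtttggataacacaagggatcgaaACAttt

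Counts were divided by the library total and the gene length (CPM per kilobase, kb) to compare genes. In total RNA the levels ran from 0 for snoR54b to 8399 ± 292 CPM per kb (SD, n = 2) for snR30, the H/ACA RNA of 326 nt needed for the maturation of the small ribosomal subunit RNA in *S. cerevisiae*. snR30 had 81863 and 81511 total RNA counts against 516 and 559 in poly(A)+ RNA. It alone made up 49.2% of the summed mean CPM of the snoRNA genes in total RNA, and the 6 most counted genes 89.6%. Next by level came snR95 (3049 ± 91.1 CPM per kb), sno12 (2893 ± 355), sno16 (2400 ± 201) and snR42 (1747 ± 15.8; SD, n = 2 each). The order of snR95 and sno12 was not separated by the spread between replicates. Of the 53 genes, 18 stood above the 90th percentile of all features in total RNA, and none did in poly(A)+ RNA.

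**Figure D1:**
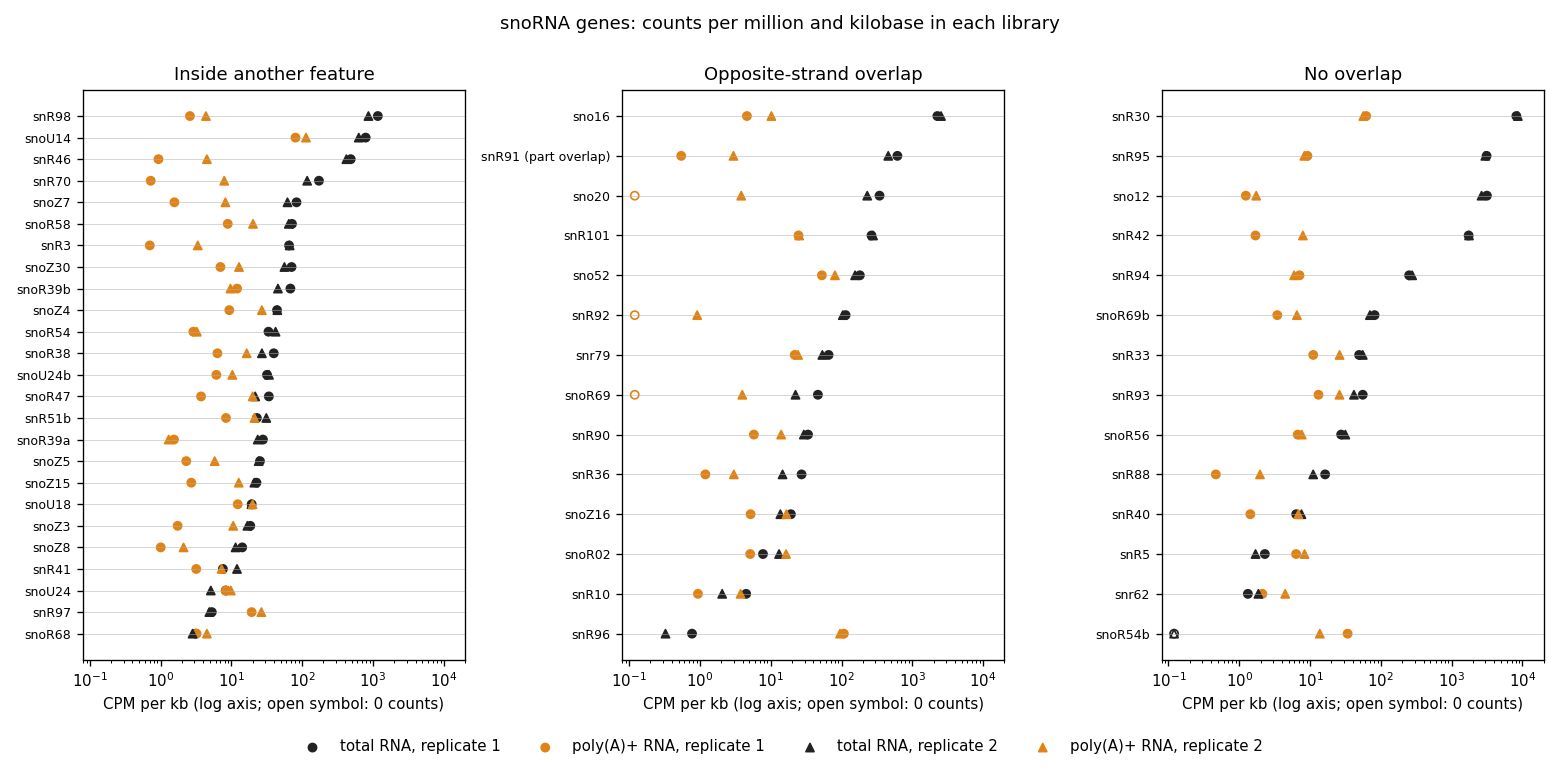
Level of each snoRNA gene in each library, in CPM per kb on a log axis, in 3 panels by coordinates, with total RNA in black, poly(A)+ RNA in orange, circles for replicate 1 and triangles for replicate 2; open symbols stand for 0 counts. At the top of each panel the total RNA points lie far to the right of the poly(A)+ points, as for snR30 (8399 CPM per kb in total RNA), and at the bottom the order turns for snR96, snR97, snR5 and snoR54b.

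At the low end, snR96 had 5 and 2 counts in total RNA, snr62 had 3 and 4, and snR5 had 10 and 7. snoR54b had none in either library, which allows up to 3 counts in each. snoR54b was thus not detected in total RNA, and the others were near the limit of this depth. The median level was 32.9 CPM per kb for genes inside another feature (31.1 and 33.4 in the separate libraries), 34.4 for those with an opposite-strand overlap (29.3 and 46.4) and 50.5 for those without overlap (48.6 and 52.4). For comparison, the median was 25.6 over 5113 protein-coding genes and 1.28 over all 12684 features. Within each group the levels spanned a far wider range than the medians did. They ran from 2.98 to 1016 CPM per kb inside, from 0.550 to 2400 opposite, and from 0 to 8399 without overlap.

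Levels also differed by gene length. No snoRNA gene had a length between 112 and 142 nt, and this gap was used, after the values had been seen, to split the genes at 120 nt. The 32 genes below it had a median of 27.4 CPM per kb in total RNA, and the 21 above it one of 263.8. Among the shorter genes, snoU14 alone had over 1000 counts in each total RNA library, against 11 of the longer genes. Across the 53 genes, Spearman's rho of length and level was 0.51, a description over genes that share the same libraries. The same rho was 0.0029 over 3386 other features of 60 to 500 nt. By sequence, the median level was 31.2 CPM per kb in the 28 box C/D-like genes and 263.8 in the 17 H/ACA-like genes by the looser pattern. Since all 28 box C/D-like genes lie below 120 nt, length and class cannot be told apart here. The recovery of short RNAs by the library kits was not tested, and fewer cells with an RNA and less of it per cell cannot be told apart in bulk samples.

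**Figure D2:**
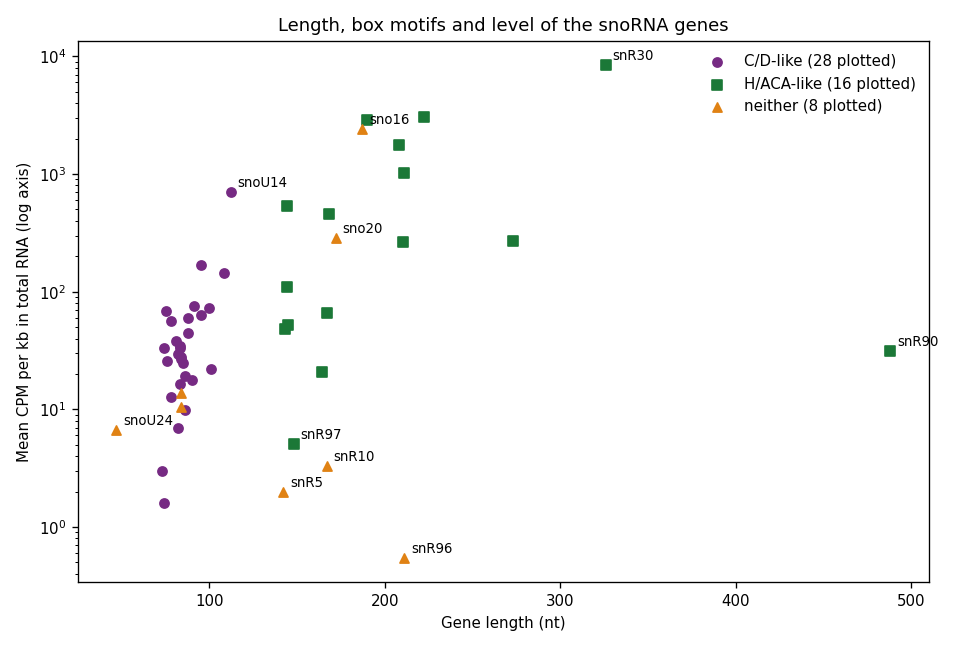
Gene length in nt against the mean level in total RNA (CPM per kb, log axis), with symbols for the box motifs by the looser pattern; snoR54b, without counts, is left out. Box C/D-like genes fill the left side up to snoU14 at 709 CPM per kb, the H/ACA-like genes drawn spread from 5.09 to 8399, and snR5, snR10 and snR96 lie below all other long genes.

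Poly(A)+ RNA held little snoRNA. Together the 53 genes held 0.561% of all counts in replicate 1 of total RNA (95% Wilson interval 0.559 to 0.564) and 0.553% in replicate 2 (0.550 to 0.555). In poly(A)+ RNA the share was 0.00956% (0.00919 to 0.00994) and 0.0125% (0.0121 to 0.0129). These intervals cover counting error only. The ratio of the mean shares was 50.5, or 31.1 without snR30. With 2 libraries a side, a two-sided exact permutation test cannot go below its value here, p = 0.3333. In edgeR's quasi-likelihood test across all features, 51 of the 53 genes passed the filter on low counts, and 42 had an adjusted p under 0.05 with the lower value after poly(A)+ selection. Of all 11234 features tested, 35.5% were lower, and of the 5008 protein-coding genes among them 72.4%. The genes called higher were 3, snR96, snR97 and snoR54b, against 49.7% of all features and 7.89% of protein-coding genes tested. With scaling on protein-coding genes alone these counts were 34 and 4. Without poly(A)+ replicate 2, snR10, snR40, snoR02 and snoZ16 were also called lower. The median log2 fold change, poly(A)+ over total RNA, was -3.13 over the 51 genes, 0.84 over all tested features and -0.93 over protein-coding genes, so that the snoRNA genes stood at -2.20 relative to the median protein-coding gene.

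The poly(A)+ residue is used here for the CPM of a gene in poly(A)+ RNA as a percent of its CPM in total RNA. Its median was 20.2% over the 52 genes with counts in total RNA, against 88.2% over protein-coding genes and 215.1% over all features with such counts. It was below 1% for 10 genes and above 100% for 7. By coordinates, the median residue was 21.3% inside another feature, 31.5% with an opposite-strand overlap and 8.86% without overlap. Between pairs of libraries these medians varied with an SD of 10.1, 13.6 and 6.39 percentage points, so that the groups were not clearly apart. Without poly(A)+ replicate 2 they were 12.4, 18.4 and 4.55%, and without poly(A)+ replicate 1 they were 29.6, 40.8 and 14.3%. With at least 50 counts in total RNA required, the medians were 16.0, 9.17 and 2.47%. With the TMM factors used in the fold changes they were 12.4, 18.4 and 5.12%. The residues given here use library totals, so that a residue above 100% can stand beside a negative log2 fold change, as for snoU24 and snoR02. In each group the longer genes had the lower median residue. Inside, the median was 24.99% below 120 nt and 1.84% above. With an opposite-strand overlap it was 39.7% and 9.60%, and without overlap 24.3% and 1.59%. In terms of calls, 22 of 24 tested genes inside another feature were lower, 9 of 13 with an opposite-strand overlap and 10 of 13 without overlap. Among all features tested 35.5% were lower, and among protein-coding genes 72.4%. The counts with an opposite-strand overlap and without overlap were thus near the share of protein-coding genes.

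**Figure D3:**
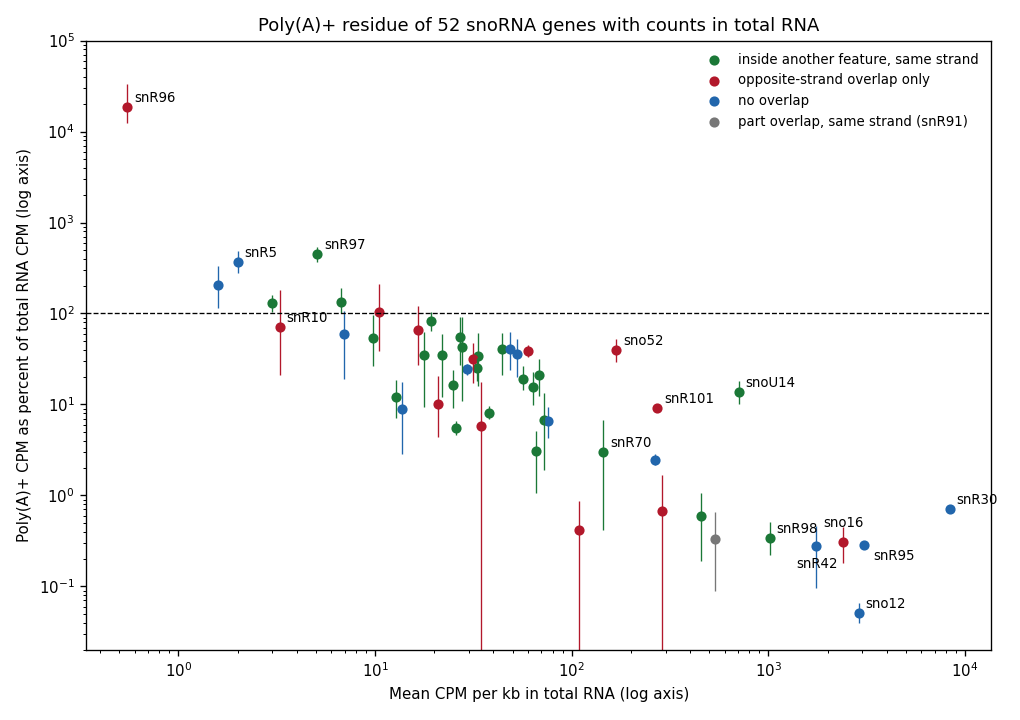
Poly(A)+ residue in percent against the mean level in total RNA (CPM per kb), both on log axes, for 52 snoRNA genes colored by coordinates; vertical lines span the pairs of 1 poly(A)+ and 1 total RNA library and run to the lower edge where a poly(A)+ library had 0 counts. The residue falls from 18471% for snR96 to 0.0513% for sno12 as the level rises, and snoU14 (13.7%), snR101 (9.17%) and sno52 (39.7%) lie above genes of like level.

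Residue and level were related across genes, with a Spearman's rho of -0.83 (n = 52, a description, since the level in total RNA is the denominator of the residue). In contrast, rho was -0.026 for the levels of the 53 genes in the total and poly(A)+ fractions. The latter spanned 0.457 to 101.5 CPM per kb. A further feature of the poly(A)+ counts was a difference between its replicates. In replicate 2, 46 of the 53 genes had a higher CPM than in replicate 1, with a median ratio of 2.19. That ratio was 1.10 over all features and 1.13 over protein-coding genes. In total RNA the corresponding ratio of replicate 2 to replicate 1 was 0.873 for snoRNA genes. The 53 genes together had 2440 poly(A)+ counts in replicate 1 and 3797 in replicate 2.

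For genes without overlap no other annotated feature shares the counts. Of these 14, the 4 with the highest levels had residues below 1%. A low residue need not mean a low poly(A)+ level. snR30 stood at 59.2 CPM per kb in poly(A)+ RNA, against a median of 21.9 over protein-coding genes. sno12 had 18308 and 14586 total RNA counts against 6 and 10 in poly(A)+ RNA, a residue of 0.0513% (0.0393 to 0.0656 over library pairs). Its log2 fold change of -11.64 was the lowest of all 51 (SE 0.22, edgeR adjusted p = 2.0e-06). snR42, of the H/ACA class in *S. cerevisiae*, had 11066 and 10625 counts against 9 and 50 (log2 fold change -9.23). Its poly(A)+ libraries differed, with 1.70 and 7.92 CPM per kb, and both lay far below the 1736 and 1758 of total RNA. snR95 had 21182 and 19249 counts against 52 and 56, which gives a log2 fold change of -9.19 (SE 0.18). snR30, with a residue of 0.705%, kept more than these 3 and fell by 7.89 on the log2 scale (SE 0.16). It made up 17.5% of the summed mean CPM of the snoRNA genes in poly(A)+ RNA. On the other strand *pdi4* lies 16 nt from snR30, with 287 and 496 poly(A)+ counts, and its part was not tested.

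The other genes without overlap followed at lower levels. snR94 had 1614 and 1689 counts against 38 and 38 (residue 2.47%), and snoR69b had 227 and 185 against 8 and 18 (6.58%). snR33 and snR93, of 145 and 143 nt, kept 35.5% and 40.4%. snR33 had 219 and 234 total RNA counts against 41 and 115 in poly(A)+ RNA (log2 fold change -2.25, adjusted p = 0.0020, edgeR). snR93 had 243 and 173 against 48 and 113 (-2.07, adjusted p = 0.0021, edgeR). Both lie downstream of a well expressed gene on the same strand, snR33 at 43 nt from *gfa1* (11528 and 11124 counts in total RNA, 5396 and 6231 in poly(A)+ RNA) and snR93 at 84 nt from the ribosomal protein gene *rpl29*. On the other strand, *glo1* lies 46 nt from snR33 (3798 and 3928 poly(A)+ counts) and *dis2* 241 nt from snR93 (5710 and 6706). The part of these neighbours in the poly(A)+ counts was not tested. Among the short genes, snoR56 kept 24.3%, and snR88, with 1 and 5 poly(A)+ counts, kept 8.86% (2.86 to 17.7 over library pairs). snR40, whose 16 and 18 counts in total RNA stood against 3 and 17 in poly(A)+ RNA, did not pass the threshold (log2 fold change -1.47, adjusted p = 0.088, edgeR), with overlapping CPM between fractions.

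In snR5 and snoR54b, both without overlap, the poly(A)+ values were the higher ones. snR5 had 10 and 7 total RNA counts against 23 and 36 in poly(A)+ RNA, with both poly(A)+ libraries above both total RNA libraries. Its residue was 368% (213 to 678 by an exact interval on the summed counts, counting error only). Its log2 fold change of 1.12 missed the threshold (SE 0.48, edgeR adjusted p = 0.068), and passed it under 2 of the alternatives run, with library totals (0.015) or protein-coding genes (0.0079) as scale. snoR54b had 83 and 40 counts in poly(A)+ RNA after none in total RNA. Against a floor of 3 counts per library it was at least 22.7-fold higher in poly(A)+ RNA (adjusted p = 0.0033, edgeR), or 13.1-fold without poly(A)+ replicate 1 (adjusted p = 0.0013, edgeR). SPNCRNA.3895, whose end lies 71 nt upstream in the same direction, had 1 and 0 total RNA counts against 162 and 88 in poly(A)+ RNA. snr62 was not tested, with 3 and 4 counts against 4 and 10.

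snoR54b bears the name of a second copy of snoR54 (chrII:1707601-1707681, + strand), and snoU24 that of U24 like snoU24b (chrI:2440336-2440418, + strand). These 4 genes are shown because in each pair 1 copy behaved unlike the other, with the longest run that the copies share in capitals. snoR54 and snoR54b (chrI:4238306-4238401, + strand) share at most 7 nt in a row, and CTGA is missing from snoR54b. snoU24 (chrI:5369640-5369686, - strand) is annotated with 47 nt and ends without CTGA, and shares 10 nt in a row with snoU24b.
snoU24: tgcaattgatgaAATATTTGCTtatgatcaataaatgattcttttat
snoU24b: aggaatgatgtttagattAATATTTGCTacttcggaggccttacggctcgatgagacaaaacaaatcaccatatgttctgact
snoR54: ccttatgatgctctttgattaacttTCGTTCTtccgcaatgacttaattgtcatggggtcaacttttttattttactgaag
snoR54b: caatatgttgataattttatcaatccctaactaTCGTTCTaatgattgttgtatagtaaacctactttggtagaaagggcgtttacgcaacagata

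In total RNA snoR54 had 83 and 99 counts and snoR54b none. For U24, snoU24b had 81 and 82 total RNA counts against 13 and 26 in poly(A)+ RNA, and snoU24 had 12 and 7 against 10 and 14. The residue of snoU24b was 24.99% and that of snoU24 134.8%. snoU24 did not pass the threshold (log2 fold change -0.32, adjusted p = 0.59, edgeR). The copies in the other 2 pairs were more alike. snoR69 (chrI:5387559-5387641, + strand) and snoR69b (chrI:4154912-4155002, + strand) kept 5.77% and 6.58%, and snoR39a (chrI:1712996-1713071, + strand) and snoR39b (chrII:1791743-1791820, - strand) 5.53% and 19.2%. They are shown with the longest shared run in capitals, 13 nt in both pairs, since such a run just upstream of a box can pair with the target RNA in this class. In the snoR39 pair the run stands directly upstream of the CTGA near the end or 2 letters from it. In the snoR69 pair it starts at nt 21 of 83 in snoR69 and at nt 39 of 91 in snoR69b.
snoR69: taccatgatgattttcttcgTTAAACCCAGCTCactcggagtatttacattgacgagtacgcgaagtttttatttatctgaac
snoR69b: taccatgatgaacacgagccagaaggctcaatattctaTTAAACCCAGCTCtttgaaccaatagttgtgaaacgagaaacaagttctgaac
snoR39a: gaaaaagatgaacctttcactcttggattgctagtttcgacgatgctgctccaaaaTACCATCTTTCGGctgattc
snoR39b: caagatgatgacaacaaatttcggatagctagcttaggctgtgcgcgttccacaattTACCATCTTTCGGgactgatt

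Genes inside another feature fall into 2 kinds. The 10 inside protein-coding genes all lie in introns and are 47 to 101 nt long. The other 15 lie in non-coding RNAs. The counts of the inner gene appear to be included in those of the host, since no snoRNA gene had more counts than its host in any library and snR98 had 7569 and 5286 counts in total RNA where its host SPNCRNA.814 had 7571 and 5287. The ratio of counts per nucleotide between a snoRNA gene and its host is free of any scaling between libraries. Its median over the 25 pairs was 1.36 and 1.40 in total RNA, against 0.226 and 0.522 in poly(A)+ RNA, and it was higher in total RNA for 20 of the 25. For intronic genes the median ratio was 0.272 and 0.242 in total RNA, against 0.0472 and 0.0798 in poly(A)+ RNA. For genes inside non-coding RNAs it was 2.47 and 2.31, against 0.916 and 1.57. Where host counts include the inner gene, this ratio cannot exceed the host's length over that of the gene. With the gene's counts and length subtracted from the host, the median for non-coding hosts was 3.63 and 3.95, against 0.913 and 1.62.

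**Figure D4:**
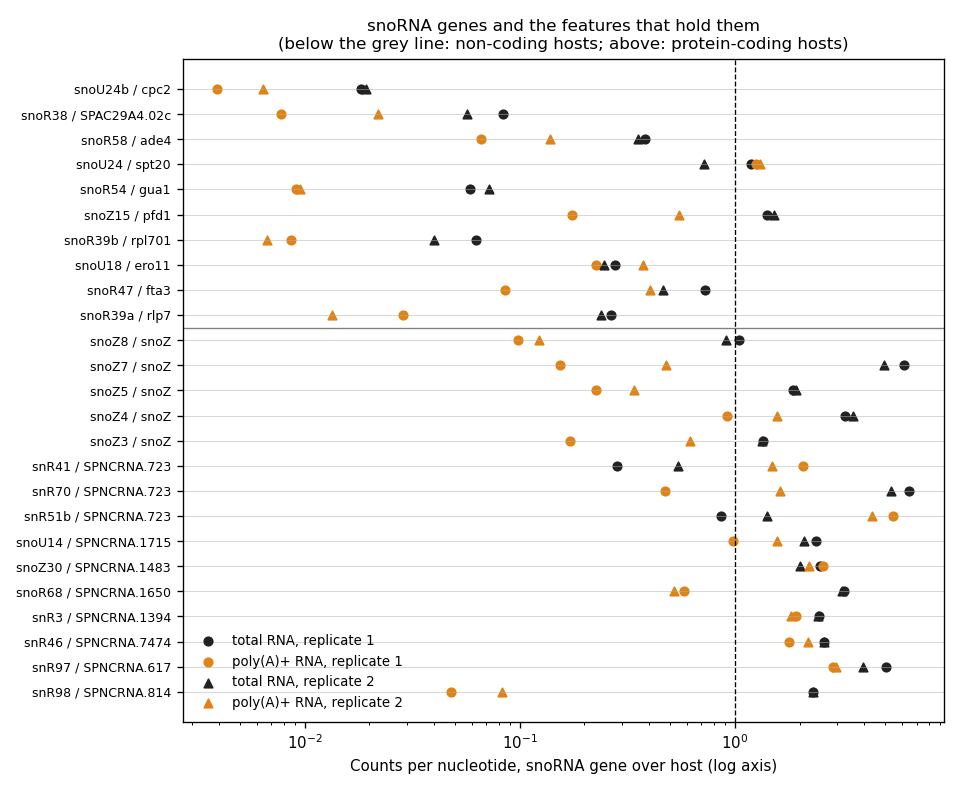
Counts per nucleotide of each snoRNA gene divided by those of its host (log axis) in each library, total RNA in black and poly(A)+ RNA in orange, circles for replicate 1 and triangles for replicate 2. Above the grey line, intronic genes lie mostly left of the dashed line at 1. Below the grey line, genes in non-coding hosts lie mostly right of the dashed line in total RNA. snR98 moves from 2.31 in both total RNA libraries to 0.0478 and 0.0823 in poly(A)+ RNA. Its host's counts appear to include its own, so that 2.31 is near the most that the host's length allows.

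Intronic snoRNA genes sat in hosts of very different levels. The most expressed host was *cpc2*, which encodes the ribosome-bound RACK1 protein and had 81214 and 78132 counts in total RNA. Its intron holds snoU24b, whose ratio to the host was 0.0182 and 0.0192 in total RNA, against 0.00392 and 0.00640 in poly(A)+ RNA. U24 of *S. cerevisiae* lies in an intron of the corresponding gene. In *gua1*, the IMP dehydrogenase gene, snoR54 had a ratio of 0.0586 and 0.0723 in total RNA against 0.00910 and 0.00946. snoR39b, in the ribosomal protein gene *rpl701*, had 0.0623 and 0.0400 against 0.00863 and 0.00666. In *SPAC29A4.02c*, snoR38 had 0.0840 and 0.0566 against 0.00779 and 0.0218. snoR39a in *rlp7* and snoR58 in the purine synthesis gene *ade4* stood at 0.238 to 0.383 in total RNA and at no more than 0.138 in poly(A)+ RNA. In all 6 pairs named here every total RNA ratio exceeded every poly(A)+ ratio.

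The remaining intronic genes kept more. snoZ15, in the prefoldin gene *pfd1*, was the only intronic gene that exceeded its host in both total RNA libraries (1.42 and 1.52), and had 0.175 and 0.549 in poly(A)+ RNA. snoR47, in the kinetochore gene *fta3*, had 0.730 and 0.464 against 0.0857 and 0.402. It also lies opposite SPNCRNA.6217, which had 18 and 11 total RNA counts against 1302 and 1803 in poly(A)+ RNA. snoU18, in the ER oxidoreductase gene *ero11*, was nearly as high in both fractions. It had 51 and 48 total RNA counts against 27 and 52 in poly(A)+ RNA, and its CPM overlapped between them. Its call as lower was weak (log2 fold change -1.01, adjusted p = 0.044, edgeR), and was lost without total RNA replicate 1 (adjusted p = 0.13), without total RNA replicate 2 (0.12), without poly(A)+ replicate 1 (0.20), with library totals as scale (0.61), with protein-coding genes as scale (0.93) and without the filter on low counts (0.055). snoU24 in *spt20*, a SAGA subunit gene, had ratios of 1.19 and 0.715 in total RNA, against 1.25 and 1.30 in poly(A)+ RNA.

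snoU14, the U14 RNA needed for cleavage of the ribosomal RNA precursor in *S. cerevisiae*, lies inside *mamRNA* (SPNCRNA.1715). It was the highest box C/D-like gene in total RNA at 709 ± 112 CPM per kb (SD, n = 2), with 2706 and 2050 counts. In poly(A)+ RNA it had 230 and 385 counts, or 96.8 ± 23.2 CPM per kb, which exceeded every other snoRNA gene there but snR96. Its residue of 13.7% (10.2 to 18.0 over library pairs) compares with 24.3% for the feature *mamRNA*, which spans it. That value is of the whole feature and not of the rest of it, since snoU14 made up 23.7% and 20.8% of its total RNA counts. The paper reports a further box C/D snoRNA in an intron of *mamRNA*. It had not been annotated before and is not among the genes examined here, and its part in these counts was not tested. The fall of snoU14 by 3.63 on the log2 scale (SE 0.20, edgeR adjusted p = 1.6e-05) was 2.70 relative to the median protein-coding gene.

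Precursors with several snoRNA genes showed how unequal members of a single transcript can be. The host snoZ (SPNCRNA.659) holds snoZ8, snoZ7, snoZ5, snoZ4 and snoZ3 in this order. In total RNA their levels spanned 5.65-fold, from 12.8 ± 1.94 CPM per kb for snoZ8 to 72.6 ± 15.02 for snoZ7 (SD, n = 2 each). snoZ7 had 255 and 180 counts against 4 and 25 (residue 6.75%), and snoZ4 had 119 and 114 against 21 and 72 (40.9%). The other 3 rested on few poly(A)+ counts. snoZ8 had 2 and 5 there (residue 12.1%, 7.06 to 18.4 over library pairs), snoZ5 had 5 and 15 (16.4%, 9.09 to 23.9), and snoZ3 had 4 and 29 (34.98%, 9.42 to 63.1). The host itself stood at 104%, with 794 and 695 total RNA counts against 495 and 990 in poly(A)+ RNA. All 5 genes were called lower, as were 35.5% of all features and 72.4% of the protein-coding genes tested.

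SPNCRNA.723 holds snR41, snR70 and snR51b, box C/D genes whose namesakes in *S. cerevisiae* also share a precursor. snR70 was the high member, with 571 and 369 total RNA counts against 2 and 26 in poly(A)+ RNA. It took 80.5% and 66.0% of the host's counts in total RNA but only 5.88% and 20.2% in poly(A)+ RNA. The log2 fold change of snR70 stood at -5.76 (SE 0.67, edgeR adjusted p = 0.00031). snR51b had 59 and 76 counts against 18 and 54, and took 8.32% and 13.6% of the host's counts in total RNA but 52.9% and 41.9% in poly(A)+ RNA. It was called lower (log2 fold change -1.62, adjusted p = 0.019, edgeR), but not without total RNA replicate 2 (0.096), without poly(A)+ replicate 1 (0.058) or with library totals as scale (0.19). snR41 had 20 and 30 counts against 7 and 19, with a residue of 53.4%, against 54.7% for snR51b and 2.98% for snR70. Of snR51b, 43 of 84 nt lie opposite SPNCRNA.2530, which had 0 and 4 total RNA counts against 12 and 46 in poly(A)+ RNA.

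Other non-coding hosts hold 1 snoRNA gene each. In hosts of 429 to 487 nt, snR98, snR46 and snR3 took 94.4 to 99.98% of their hosts' counts in total RNA. snR98 had a log2 fold change of -8.92 (SE 0.29) and a residue of 0.343%, with 14 and 28 counts in poly(A)+ RNA. Its host SPNCRNA.814 had 676 and 785 counts there, so that snR98 took 2.07% and 3.57% of them. The poly(A)+ reads of this feature thus fell almost wholly outside snR98. For snR46 (2496 and 2054 counts against 4 and 23, log2 fold change -8.07) the host had 6 and 28 poly(A)+ counts, and for snR3 (334 and 323 against 3 and 17, -5.71) it had 4 and 24. snR91, the gene with a partial same-strand overlap, had 2715 and 1911 counts against 2 and 13 (log2 fold change -8.92), nearly those of SPNCRNA.901 (2719 and 1917 against 2 and 14).

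snoZ30 kept 15.6% and its host SPNCRNA.1483 15.2%. snoR68 was not tested, with 7 and 6 total RNA counts against 6 and 10 in poly(A)+ RNA inside SPNCRNA.1650. snR97 was the gene called higher inside a host. It had 24 and 21 total RNA counts against 73 and 119 in poly(A)+ RNA, so that both poly(A)+ libraries lay above both total RNA libraries. Its log2 fold change was 1.41 (SE 0.36, edgeR adjusted p = 0.010), with adjusted p = 0.054 under DESeq2's size factors and 0.12 in DESeq2's own test. The host SPNCRNA.617 rose with it (136 and 153 counts against 728 and 1147). All 148 nt of snR97 also lie opposite *rad8*, a ubiquitin ligase gene with 2443 and 2498 total RNA counts against 612 and 1008 in poly(A)+ RNA.

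Most genes with an opposite-strand overlap exceeded the feature across from them in total RNA, and came closer to it in poly(A)+ RNA. Counting the 5 genes inside hosts that also have such an overlap, 18 snoRNA genes could be set against it. In total RNA 13 of them exceeded it in counts per nucleotide in both libraries, with a median ratio of 6.78 and 9.43. In poly(A)+ RNA that median was 1.18 and 1.52. Poly(A)+ counts of shared nucleotides may stem from the RNA of either strand, which would by itself bring a ratio nearer to 1. The poly(A)+ ratios here and below therefore do not measure either RNA by itself. SPNCRNA.6217, for example, lies wholly within *fta3* on the other strand. It had 1302 and 1803 poly(A)+ counts, and *fta3* had 1274 and 1731. How reads were divided between the strands was not tested.

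**Figure D5:**
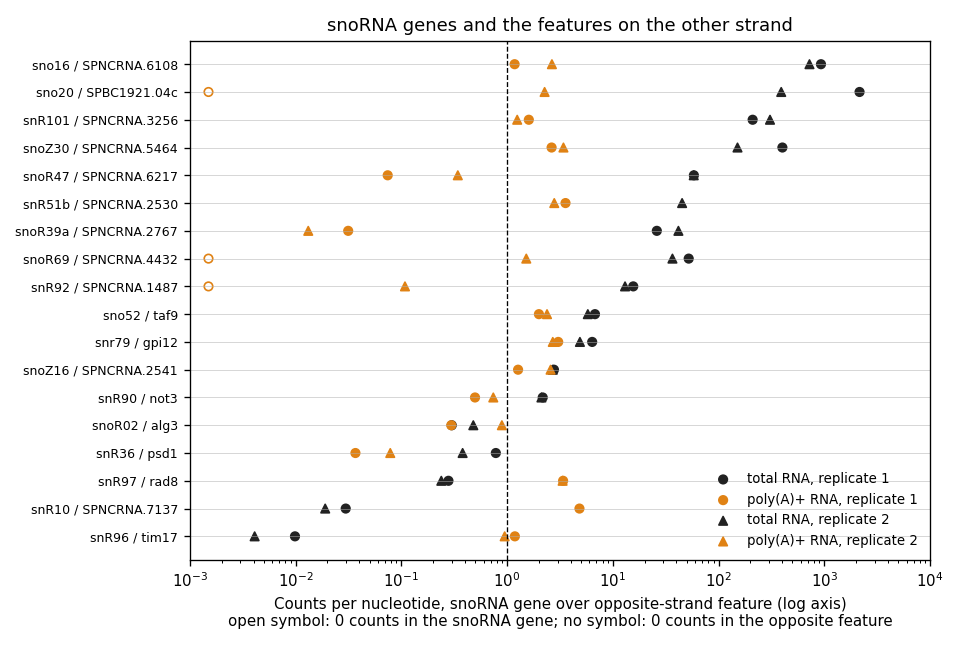
Counts per nucleotide of 18 snoRNA genes divided by those of the feature on the other strand (log axis) in each library, total RNA in black and poly(A)+ RNA in orange, circles for replicate 1 and triangles for replicate 2; open symbols mark 0 counts in the snoRNA gene and missing symbols 0 counts in the feature across. Total RNA points range from 0.00410 for snR96 to 2157 for sno20. Poly(A)+ points lie on both sides of the dashed line at 1, in libraries where reads of both strands may count. They range from 0, as for snR92 in replicate 1, to 4.84 for snR10 in replicate 1.

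sno16 was the highest of this group, with 12937 and 13811 total RNA counts against 22 and 58 in poly(A)+ RNA. This gave a log2 fold change of -9.08 (SE 0.35, edgeR adjusted p = 5.0e-06) and its residue 0.309%. SPNCRNA.6108 across from it had 35 and 48 total RNA counts against 47 and 55 in poly(A)+ RNA, so that sno16 led by 931 and 725 times in counts per nucleotide in total RNA and by 1.18 and 2.66 times in poly(A)+ RNA. snR92 had 504 and 436 counts against 0 and 4 (log2 fold change -8.44), while SPNCRNA.1487 across from it had 154 and 301 poly(A)+ counts. sno20 had 1814 and 1153 counts against 0 and 20 (-7.89, SE 0.77), and all its poly(A)+ signal came from replicate 2. snoR69, opposite SPNCRNA.4432, was alike with 118 and 54 against 0 and 10.

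Others in this group kept more. snR101, of 273 nt, had 2216 and 2213 total RNA counts against 172 and 209 in poly(A)+ RNA (residue 9.17%), beside 193 and 302 poly(A)+ counts of SPNCRNA.3256, which had only 19 and 13 in total RNA. sno52, opposite the transcription factor gene *taf9*, had 528 and 429 against 128 and 233 (39.7%, log2 fold change -2.09, adjusted p = 0.00028, edgeR). snr79 opposite *gpi12* kept 38.7%. Only 106 of the 488 nt of snR90 lie opposite *not3*, a subunit gene of the Ccr4-Not complex. It had 503 and 416 counts against 72 and 208, a residue of 31.5%. snR36, of which 86 of 164 nt lie opposite *psd1*, had 5 and 15 poly(A)+ counts and kept 10.03% (4.38 to 20.5 over library pairs). Genes under the threshold were snoR02 opposite *alg3* (20 and 32 counts against 11 and 42, log2 fold change -0.70, adjusted p = 0.32, edgeR) and snoZ16 opposite SPNCRNA.2541 (49 and 33 against 11 and 42, -1.34, adjusted p = 0.066, edgeR). In both, the CPM of the fractions overlapped.

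snR10 and snR96 are the overlapped genes shown above on the opposite strand. snR10, whose namesake acts in ribosomal RNA processing in *S. cerevisiae*, had 23 and 10 total RNA counts against 4 and 19 in poly(A)+ RNA (log2 fold change -1.21, adjusted p = 0.16, edgeR). SPNCRNA.7137, a feature of 404 nt that covers all of snR10 on the other strand, had 1868 and 1270 total RNA counts against 2 and 0 in poly(A)+ RNA. Over its whole length SPNCRNA.7137 thus had 129.5 CPM per kb in total RNA, against 3.28 for snR10 as annotated. Its counts over the stretch across from snR10 alone were not measured. The poly(A)+ counts of snR10 thus exceeded those of the feature across, while its total RNA counts were far below them. For snR96, the gene with the highest log2 fold change of the 51 apart from snoR54b, the values were 5 and 2 total RNA counts against 581 and 610 in poly(A)+ RNA. The log2 fold change was 6.74 (SE 0.41, edgeR adjusted p = 2.1e-05). Of its 211 nt, 148 lie opposite *tim17*, a mitochondrial import gene with 3478 and 3349 total RNA counts against 3364 and 4410 in poly(A)+ RNA, and the ratio of counts per nucleotide to *tim17* was 0.00987 and 0.00410 in total RNA, against 1.19 and 0.949 in poly(A)+ RNA. For snR5 no feature is annotated on the other strand. Without snR5, snR10 and snR96, a step taken after their values had been seen, the 18 remaining genes above 120 nt had a median level of 279.7 CPM per kb and a median residue of 0.686%, against 263.8 and 2.47% with them.

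The protein genes of the pathway were measured with the mRNAs. Of the 4 core box C/D protein genes, *nop56*, *nop58* and *snu13* were lower in poly(A)+ RNA and *fib1*, the methyltransferase gene, was higher (log2 fold change 0.56, SE 0.10). Of the 4 core H/ACA genes, *cbf5* (-1.72), *nhp2* (-0.75) and *nop10* (-0.48) were lower and *gar1* (-0.01) did not pass. Among 11 assembly and processing genes, 9 were lower, the assembly factor gene *shq1* was higher (0.84), and the debranching enzyme gene *dbr1* did not pass (-0.50, edgeR adjusted p = 0.054). Over all 5008 protein-coding genes tested, 72.4% were lower and 7.89% higher, so that the counts of these lists were near the background. Their median log2 fold changes, -1.09, -0.61 and -1.04, lay near the -0.93 of protein-coding genes. The levels of the listed genes in total RNA ran from 14.3 to 523.7 CPM, and those of the snoRNA genes from 0 to 2738 CPM.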

How the data were processed

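The deposited values are gene counts, made by the authors with STAR 2.6.1d and featureCounts of Subread 2.0.6 after bcl2fastq 2.18.12 and Cutadapt 1.15 for total RNA and bcl2fastq 2.20 and fastp 0.23.1 for poly(A)+ RNA. The build and the strand and overlap settings are not given in the sources used here. Each of the 2 tables has 9 header cells over 8 fields a row, and columns were assigned by position within the row. Column names match the labels of 1 library each.

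CPM uses library totals and CPM per kb the feature length. Poly(A)+ was compared with total RNA in edgeR 4.0.16 (R 4.3.3; glmQLFit and glmQLFTest, TMM factors, filterByExpr, Benjamini-Hochberg adjustment over all features tested, threshold 0.05). On simulated counts for this comparison the fit recovered 49 and 50 of 50 changed features at a log2 fold of -3 and 3. At -1.5 and 1.5 it recovered 47 and 45 of 50, and it called 8 of 11034 unchanged features. Few features were changed there, equally in both directions. The scaling was therefore not tested for data in which most features differ. DESeq2 1.42.0, other scalings, filters and left-out libraries were alternatives. Sequences were read with biopython 1.88. Members, gene lists, rules and tests were chosen with earlier results of these data known. Genes were named by rule (snoU14, the extremes of log2 fold change in each coordinate group and of level, all genes called higher, under the threshold or untested, and overlapping features); the others are named for completeness, after their values were seen. *mam2* and *map3* had been listed under each other's mating type and are given under their known one.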

Additional observations from a re-analysis of the deposited data

How the results depend on the processing

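The genes called lower in poly(A)+ RNA were 42 at first and 44 with DESeq2 size factors, 35 with library totals, 34 with scaling on protein-coding genes, 43 with DESeq2's test, 41 without the filter, 29 of 31 with a mean of at least 50 counts and 37 to 46 when a library was left out; the genes called higher were 2 to 4 in all of these. The replicate numbers did not pair the libraries (r = -0.018 between the fractions' replicate differences), and with the replicate block 41 were lower and 3 higher. snoU18 was the named gene that lost its call under the block. The log2 fold change of snoR02 turned to 0.071 with library totals and 0.27 with scaling on protein-coding genes. That of snoU24 turned to 0.43 and 0.64, and ran from -0.62 to 0.068 with a total RNA library left out; neither gene was past the threshold. The cause was not tested.

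The median level in total RNA of the genes inside another feature was 35.5 CPM per kb when opposite-strand overlap took priority, and 31.1 to 33.4 with a library left out. Not divided by length, the medians were 2.47, 5.24 and 6.91 CPM for genes inside, opposite and without overlap. The median residue without overlap was 18.5% with 1 count added, 2.47% with at least 50 counts in total RNA and 16.6% when only opposite overlaps of at least 50% of the gene counted; that of the opposite group was 9.17% with at least 50 counts. The share ratio was 63.5 without genes inside another feature and 31.1 without snR30. The median ratio to the host was 0.257 for protein-coding and 2.31 for non-coding hosts in total RNA, against 0.0614 and 1.24 in poly(A)+ RNA, a split chosen after seeing the data, and 1.36 to 1.40 in total RNA with a library left out.

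Of the 53 genes, 44 had fewer than 100 counts in both poly(A)+ libraries, which limits the residue of low genes. With 2 libraries a fraction, leaving 1 out assumes that the lone library varies like the others.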
